A study of Mus musculus with 30 samples.

Results

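Tumours of mice given an antibiotic cocktail were set against tumours of mice left on water, over 3 times after oxaliplatin, to find which genes differed alike at every time. All 15 antibiotic samples and all 15 water samples of the series entered, which are the 30 samples it holds, and time stayed in the model as a block. The antibiotic mice had received the cocktail for 3 weeks before EL4 cells were injected under the skin of the flank, and the water mice had received none. EL4 is an established mouse T cell lymphoma line. On day 7 of tumour growth every mouse, in both groups, was injected with oxaliplatin (10 mg per kg), a platinum drug that crosslinks DNA. Tumours were taken at 0, 6 and 18 h, with 5 antibiotic and 5 water samples at each time. The drugs in the cocktail, and the strain, sex and age of the mice, are not given in the sources used here beyond the letters WT in the sample titles. Nothing in the labels says whether the numbered samples are separate mice, and p-values therefore reflect the spread among samples, technical spread included. All tumours from 6 and 18 h had been exposed to oxaliplatin, so an effect of the drug and other change with time cannot be told apart.

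As background, gut bacteria set the tone of myeloid cells throughout the body, and such cells enter tumours and supply cytokines, chemokines and reactive oxygen. Antibiotics given by mouth deplete these bacteria. The integrated stress response is a separate programme inside each cell: when amino acids run short, or when other stresses act on the translation factor eIF2, bulk translation falls while translation of the transcription factor Atf4 rises. Atf4 then turns on genes that import amino acids, make them and load them onto tRNA.

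Expression was read on Affymetrix mouse gene arrays, 1 array per sample, as log2 values. The array medians lay between 7.25 and 7.37, and 19938 genes were tested. Cd3e, a subunit of the T cell receptor complex that EL4 cells carry, ranged from 11.12 to 11.31 on the antibiotic arrays and from 11.18 to 11.52 on the water arrays, so the T cell label of the tumours was borne out. Each tumour is a mixture of EL4 cells and host cells, and in such bulk samples fewer cells of a type and less RNA per cell cannot be told apart.

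Antibiotic 6 h sample 20 stood apart from its group. For genes called alike without the array in question, it lay on the antibiotic side of the midpoint between the treatments at that time in 17.2% of 1012 genes, against 76.6% to 90.0% on the other 4 antibiotic arrays at 6 h. Antibiotic samples 6 at 0 h (41.6%) and 30 at 18 h (51.4%) also lay near or under the midpoint, while the water arrays lay between 9.01% and 48.5%. Sample 20 also had the highest mean of skeletal muscle markers, 1.45 on the log2 scale above the average array, and keratinocyte markers were high on antibiotic 6 h sample 16 (1.47) and water 6 h sample 11 (1.29). With the means of the keratinocyte and muscle markers as covariates 1318 genes passed over all times, 447 higher and 871 lower. Without these covariates the count was 1106, 415 higher and 691 lower. The part of these markers in the results was not tested beyond the values given here. At 6 h genes had a median SD of 0.135 over antibiotic arrays and 0.0799 over water arrays, against 0.0954 to 0.111 elsewhere, and the model uses 1 error for all groups. Counts of list members without sample 20 are given where they moved. Because this array lay on the water side, larger counts without it are partly built in and are no separate support. Leaving out other single arrays could lower the count over all times, to 849 without sample 26, and list counts without those arrays are not given.

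**Figure D1:**
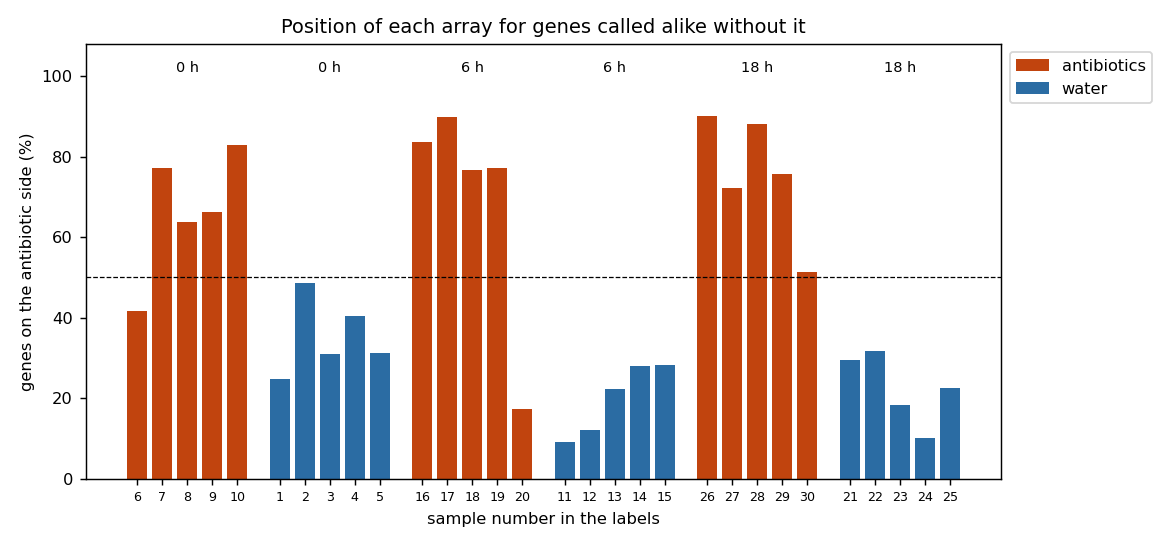
Share of genes (%) on the antibiotic side of the midpoint between the treatments at the same time, for each array by its sample number, counting genes called alike in a fit without that array; antibiotic arrays are orange and water arrays blue, and the dashed line marks 50%. Antibiotic sample 20 sits at 17.2%, below samples 16 to 19 of its group.

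Over all times 1106 genes (5.55%) passed, 415 (2.08%) higher and 691 (3.47%) lower in antibiotic tumours, by limma with an adjusted p under 0.05. The differences were small: the largest was 0.92 on the log2 scale, the median size among the genes that passed was 0.156, and 20 exceeded 0.5. Of the 1106, 1059 had the same sign at 0, 6 and 18 h (395 higher and 664 lower). Same sign at all times was found for 29.8% of all genes. The 1106 were chosen by their difference over these same times, so agreement of sign among them is partly built in. A gene was counted as alike where it also had an unadjusted interaction p of at least 0.05 and its smallest difference was at least 0.5 times the mean of the 3. This left 554 genes (2.78% of those tested), 232 (1.16%) higher and 322 (1.62%) lower. Il6st and Tbxa2r lay just inside that last limit (ratios of 0.502 and 0.503) and Sesn1 and Lats2 just outside it (0.499 and 0.497). An interaction p above the threshold does not show that 3 differences are equal.

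The single times gave unequal numbers of calls. At 0 h 18 genes (0.0903%) passed, all of them higher in antibiotic tumours. At 6 h 752 (3.77%) passed, 226 higher (1.13%) and 526 lower (2.64%), and at 18 h 1566 (7.85%), 901 higher (4.52%) and 665 lower (3.34%). The difference itself changed with time for 435 genes (2.18%) by the moderated F test. All 18 genes called at 0 h passed over all times, a fit that the 0 h arrays also enter. All of them kept their sign at 6 and 18 h, beside 54.5% and 57.3% of all genes. Of the 18, 14 had an unadjusted p under 0.05 at both later times, and 8 met the definition of alike. Of the 752 genes called at 6 h 72.7% had the same sign at 0 h and 59.0% at 18 h. Of the 1566 called at 18 h 75.1% had the same sign at 0 h and 53.7% at 6 h. Between 6 and 18 h 47.9% of all genes had the same sign. Across all genes the differences at 0 and 6 h had a Pearson correlation of 0.115, those at 0 and 18 h of 0.297 and those at 6 and 18 h of 0.222, as a description across genes, which are not independent replicates. Of the 1106 genes, 168 had an unadjusted p under 0.05 at each of the 3 times (98 higher, 70 lower). In 9 genes (0.0451% of those tested) the lowest antibiotic array lay above the highest water array at all 3 times, namely Slc1a4, Atf4, Slc6a9, Ddit3, Rhbdd1, Ifrd1, Cars, Gars and Hspa9. In 3 genes (0.015%), P2rx7, Tmem184b and Slc35b4, every antibiotic array lay below every water array at all 3 times. At single times the antibiotic arrays lay wholly above the water arrays in 0.883%, 1.53% and 4.73% of genes at 0, 6 and 18 h, and wholly below in 0.762%, 3.42% and 2.46%.

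Without antibiotic sample 20 the count over all times was 1932 (696 higher, 1236 lower) and 1012 genes were alike (367 higher, 645 lower). Quantile normalisation gave 607 genes higher and 684 lower over all times, of which 335 and 289 were alike. Subtracting array medians gave 434 higher and 454 lower, of which 273 and 211 were alike. With the 18 h arrays left out 247 genes passed.

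**Figure D2:**
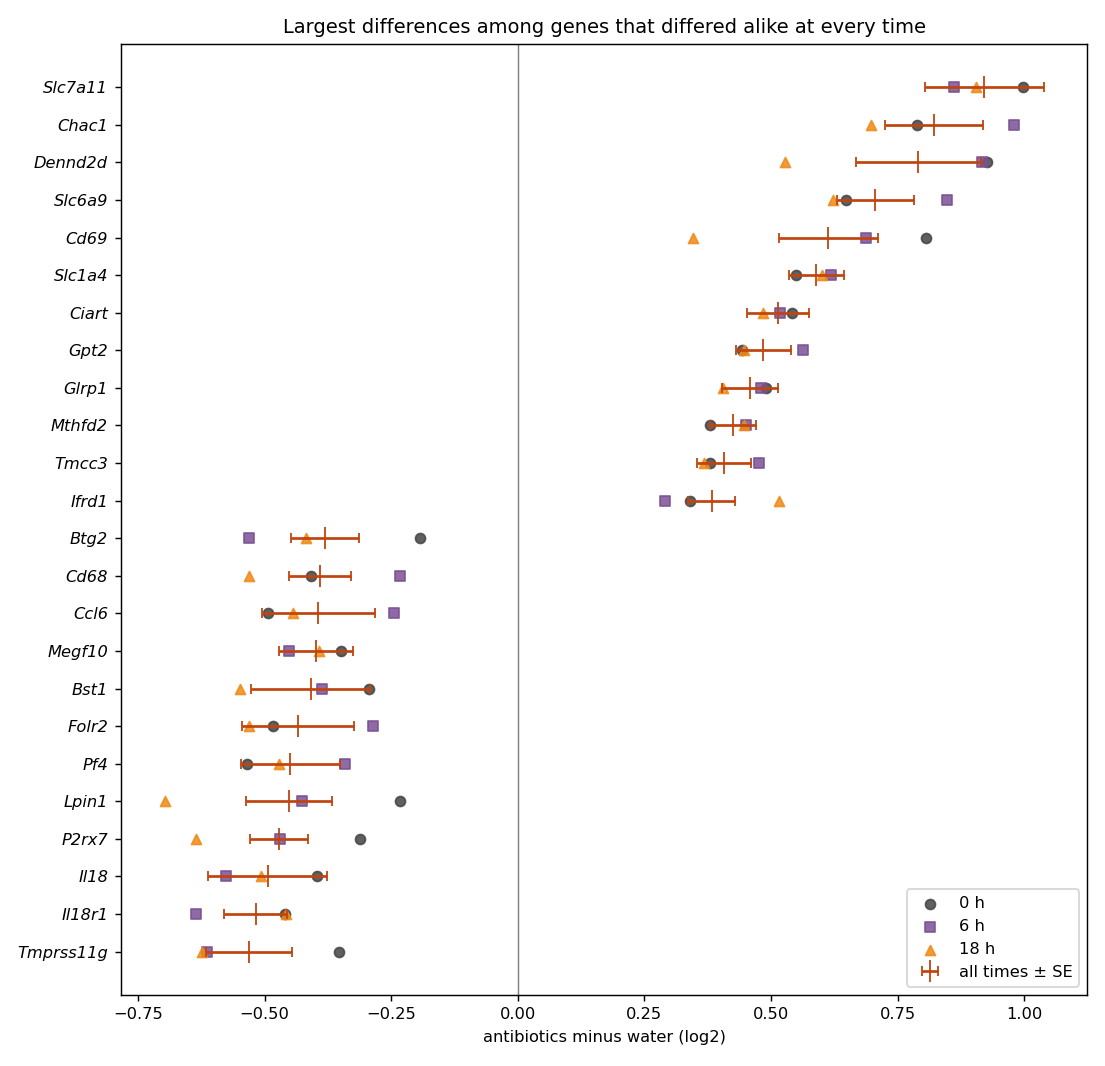
Antibiotics minus water on the log2 scale for the 12 largest differences in each direction among genes counted as alike; circles, squares and triangles give 0, 6 and 18 h, and the orange bar the difference over all times ± SE (15 antibiotic and 15 water arrays). Slc7a11 lies between 0.86 and 1.00 and Chac1 between 0.70 and 0.98, and Tmprss11g and Il18r1 have the lowest differences over all times.

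Most genes of the integrated stress response were higher in antibiotic tumours. Of 16 tested members 11 rose and 0 fell, beside 2.08% of all genes higher, and 6 of the 11 were alike. All 11 had the same sign at each time, and 7 had an unadjusted p under 0.05 at each, beside 15.2% of the genes that passed over all times. The median difference of the list was 0.19 (0.17 at 0 h, 0.24 at 6 h and 0.15 at 18 h), against 0.0042 over all genes. The highest was Slc7a11, the cystine and glutamate exchanger, which brings in cystine for glutathione synthesis, followed by Chac1, which breaks down glutathione, and Trib3, a pseudokinase that restrains Atf4. At 0 h the differences of these 3 genes were 1.00, 0.79 and 0.80. At that time Trib3 passed in limma (adjusted p = 0.0147), while Slc7a11 and Chac1 did not (adjusted p = 0.0552 and 0.0595).

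At 0 h Slc7a11 measured 10.32, 10.59, 10.14, 10.68 and 10.65 on the antibiotic arrays, against 9.47, 9.75, 9.39, 9.44 and 9.34 on the water arrays. Slc7a11 had, at 6 h, 10.53, 10.60, 10.63, 10.40 and 9.09 with antibiotics and 9.28, 9.54, 9.18, 9.34 and 9.61 with water. For Slc7a11 the 18 h values were 9.87, 10.10, 10.19, 9.85 and 9.73 with antibiotics and 8.58, 9.54, 8.72, 8.99 and 9.36 with water. At 0 and 18 h every antibiotic array lay above every water array, and at 6 h sample 20 alone, at 9.09, fell below the whole water group. Over all times Slc7a11 was higher by 0.92 ± 0.117 (SE) (limma adjusted p = 1.01e-05), and by 1.01 without sample 20.

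At 0 h Chac1 measured 9.87, 10.25, 10.42, 9.79 and 9.55 on the antibiotic arrays, against 9.06, 9.60, 9.22, 8.99 and 9.07 on the water arrays. Chac1 had, at 6 h, 9.92, 9.80, 9.75, 9.45 and 8.87 with antibiotics and 8.46, 8.83, 8.51, 8.33 and 8.77 with water. For Chac1 the 18 h values were 8.56, 8.71, 8.77, 9.05 and 8.31 with antibiotics and 8.01, 7.97, 8.03, 7.93 and 7.98 with water. The groups overlapped at 0 h, where the lowest antibiotic array (9.55) lay just under the highest water array (9.60), and were apart at 6 and 18 h. The differences were 0.79 at 0 h, 0.98 at 6 h and 0.70 at 18 h. Over all times Chac1 was higher by 0.82 ± 0.096 (SE) (adjusted p = 4.12e-06).

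At 0 h Atf4 measured 9.82, 9.86, 9.87, 9.89 and 9.83 on the antibiotic arrays, against 9.61, 9.66, 9.67, 9.58 and 9.55 on the water arrays. Atf4 had, at 6 h, 9.81, 9.80, 9.82, 9.80 and 9.68 with antibiotics and 9.56, 9.50, 9.48, 9.48 and 9.49 with water. For Atf4 the 18 h values were 9.54, 9.53, 9.50, 9.63 and 9.32 with antibiotics and 9.27, 9.17, 9.29, 9.20 and 9.25 with water. No antibiotic array overlapped the water group at any time, and sample 20 and sample 30 were the lowest of their groups. Atf4, the transcription factor of the response, was higher by 0.26 ± 0.025 (SE) (adjusted p = 1.27e-07), with 0.24 at 0 h, 0.28 at 6 h and 0.27 at 18 h. Its difference was small on the log2 scale beside a low spread between arrays.

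Trib3 was higher in antibiotic tumours at each time, by 0.80 at 0 h, 1.08 at 6 h and 0.44 at 18 h, and by 0.77 ± 0.094 (SE) over all times. It was not counted as alike because its unadjusted interaction p lay under the limit (interaction adjusted p = 0.166). The same held for Ddit3, the transcription factor CHOP, at 0.52 at 0 h, 0.67 at 6 h and 0.33 at 18 h (interaction adjusted p = 0.237), for Slc3a2, the heavy chain that partners Slc7a11 and Slc7a5, at 0.28 at 0 h, 0.30 at 6 h and 0.13 at 18 h (interaction adjusted p = 0.17), and for Shmt2, the mitochondrial serine hydroxymethyltransferase, at 0.10 at 0 h, 0.27 at 6 h and 0.30 at 18 h (interaction adjusted p = 0.28). In Trib3, Ddit3 and Slc3a2 the difference was lowest at 18 h, and in Shmt2 at 0 h. The smallest difference of Shmt2 was also under 0.5 times the mean of its 3. Atf5, a factor related to Atf4, was higher by 0.26 ± 0.062 (SE), and Psat1 and Phgdh, enzymes of serine synthesis, by 0.15 ± 0.027 (SE) and 0.15 ± 0.039 (SE), all 3 alike. The calls of Atf5 and Phgdh were lost with the arrays of any 1 time left out. Asns, which makes asparagine, was higher by 0.12 ± 0.025 (SE), with 0.06 at 0 h, 0.14 at 6 h and 0.17 at 18 h. Its call was lost with the 18 h arrays left out.

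The other 5 members did not pass. Atf3, a stress-induced factor, stood at -0.22 ± 0.085 (SE) and Vldlr, a lipoprotein receptor, at -0.18 ± 0.093 (SE). Ddit4, an inhibitor of mTORC1, stood at -0.11 ± 0.078 (SE) and Cebpb, a partner factor, at 0.07 ± 0.041 (SE). Sesn2, a leucine sensor that is also induced through p53, differed by 0.51 at 0 h, -0.07 at 6 h and -0.57 at 18 h, and its interaction passed (adjusted p = 0.0233). Without sample 20 the list had 11 members higher and 1, Atf3, lower.

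**Figure D3:**
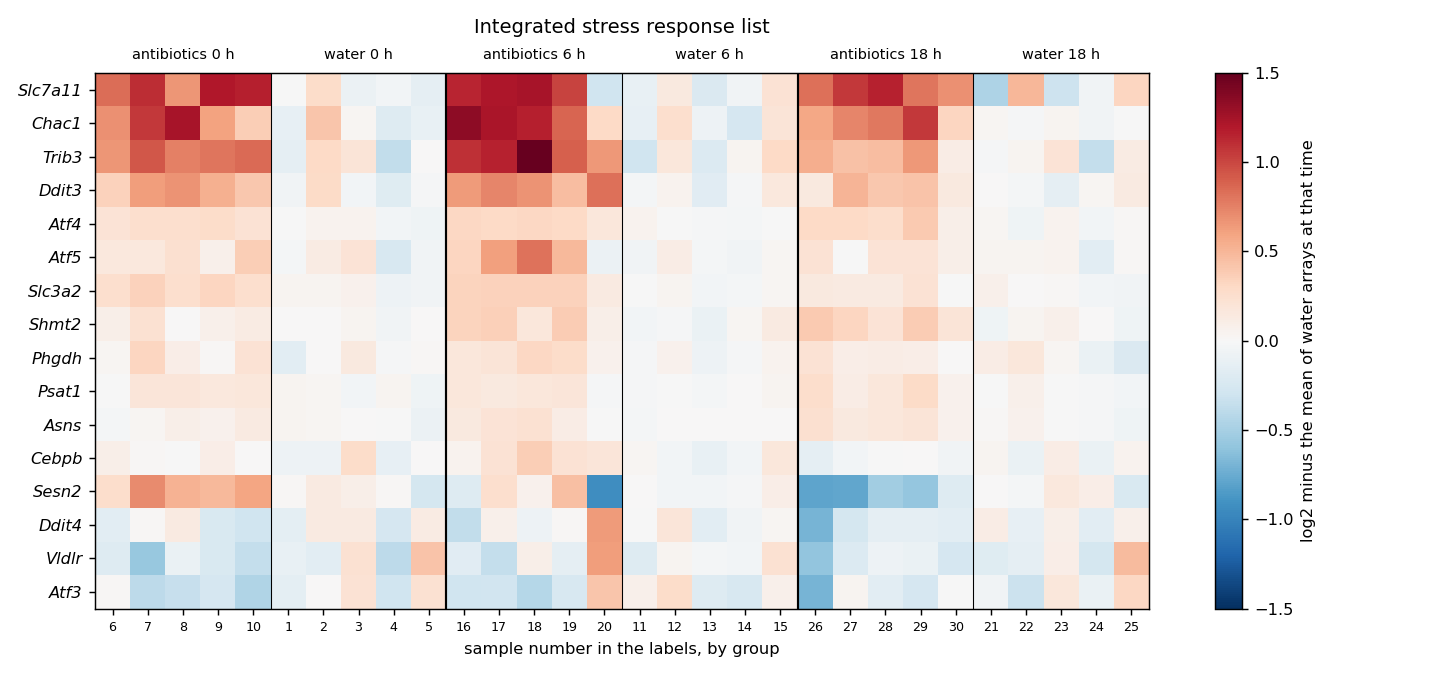
Each cell gives 1 gene of the integrated stress response list (rows) on 1 array (columns, sample numbers in groups with antibiotics left of water at each time), as log2 expression minus the mean of the water arrays at that time; red is higher and blue lower. The upper 11 rows, Slc7a11 to Asns, are red across most antibiotic arrays, sample 20 is blue in Slc7a11 and pale in Chac1, and the Sesn2 row is red in antibiotic tumours at 0 h and blue in them at 18 h.

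**Figure D4:**
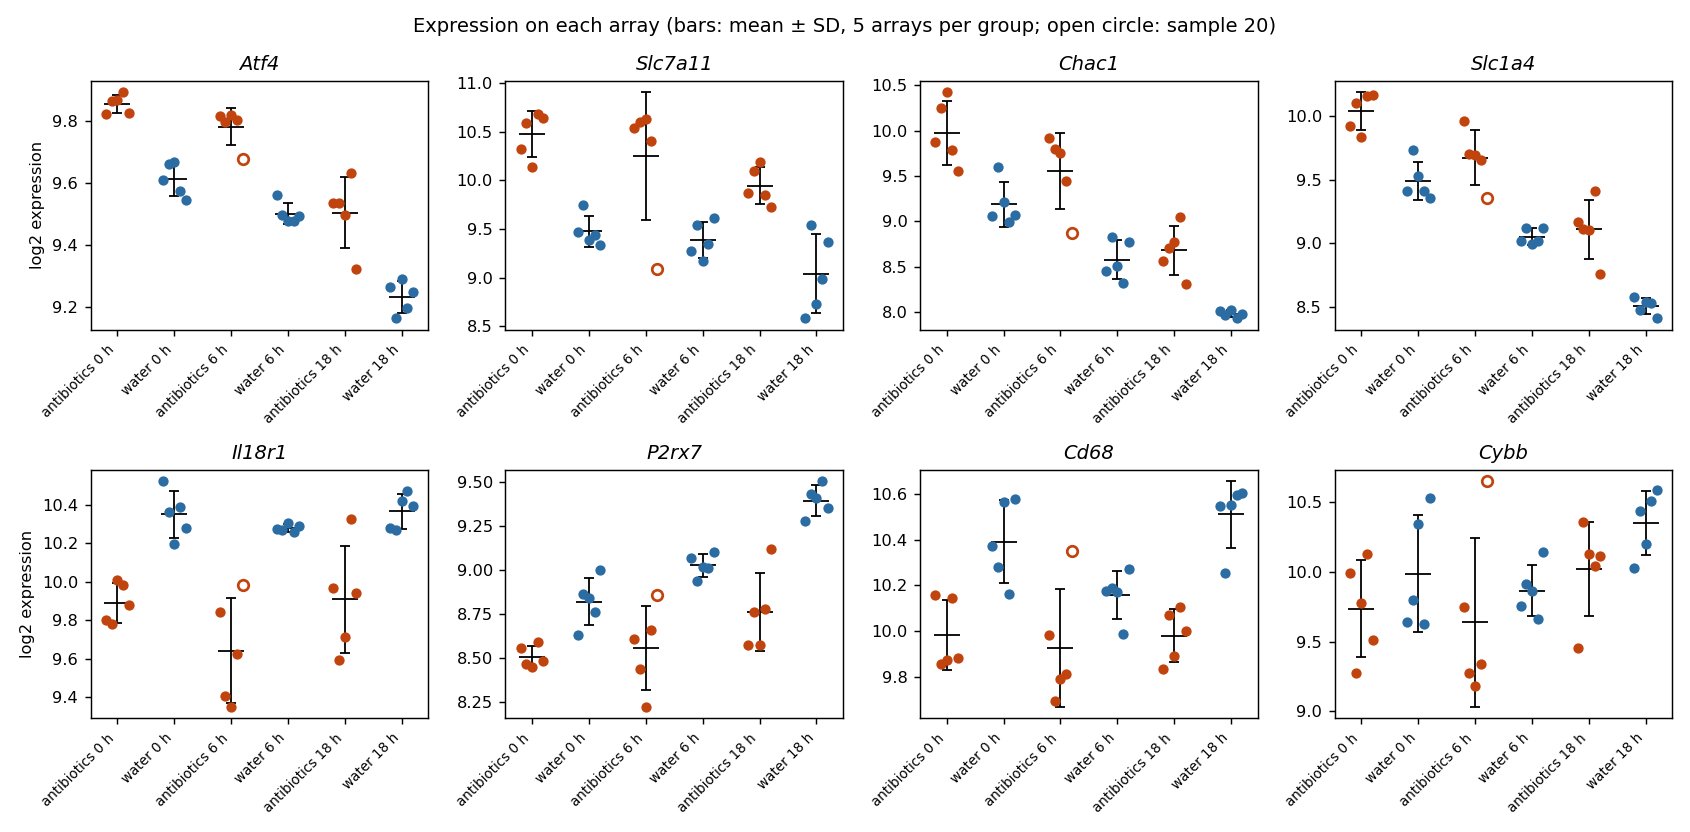
Log2 expression of 8 genes on each array by group (points; horizontal bars and whiskers give mean ± SD of 5 arrays; the open circle is sample 20). In Atf4 and Slc1a4 every antibiotic array lies above the water arrays of the same time, in P2rx7 every one lies below, and in Cybb the groups overlap at each time.

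The start-site windows of these genes were searched for the letters TGATGNAA, the core of the C/EBP-ATF response element that Atf4 binds with C/EBP partners, on both strands. The motif was chosen after the differences were seen. Of 16 list members with a window, 6 (37.5%) held it, beside 3.97% of 32851 windows and 3.62% of 15614 tested genes with a window. The list was drawn up from genes of a response led by Atf4, so a share above that of all genes is partly built in. These 6 were Slc7a11, Chac1, Trib3 and Asns, which rose, and Atf3 and Vldlr, which did not pass and stood at -0.22 and -0.18. Without sample 20 Atf3 passed as lower. The motif was in 18 of 183 alike genes that were higher (9.84%), in 11 of 256 alike genes that were lower (4.30%) and in 0 of 20 p53 targets. No match was found for the other list members that rose, Atf4, Ddit3, Slc3a2, Atf5, Psat1, Phgdh and Shmt2. Mthfd2, Gpt2 and Slc6a9, outside the list, held none either. This says only that these letters are not in those windows. A match is a description of the sequence and not evidence of binding.

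The 5 windows below are shown because their genes rose and hold the motif, in capitals, in either orientation (TGATGNAA, or TTNCATCA when read on the other strand). They are RefSeq sequence of GRCm38.p6, 250 bases before to 50 bases after the annotated start, 5′ to 3′ on the gene's strand. Slc7a11 is at chr3:50443564-50443863 (minus strand), with 2 matches. Chac1 is at chr2:119350992-119351291 (plus strand), Slc1a4 at chr11:20332664-20332963 (minus), Trib3 at chr2:152344011-152344310 (minus) and Asns at chr6:7693160-7693459 (minus).
Slc7a11: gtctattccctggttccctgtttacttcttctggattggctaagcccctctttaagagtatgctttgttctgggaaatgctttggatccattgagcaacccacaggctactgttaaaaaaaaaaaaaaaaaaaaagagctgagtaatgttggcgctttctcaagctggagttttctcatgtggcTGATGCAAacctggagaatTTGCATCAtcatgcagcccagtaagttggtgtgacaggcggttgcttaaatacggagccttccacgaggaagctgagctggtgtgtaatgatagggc
Chac1: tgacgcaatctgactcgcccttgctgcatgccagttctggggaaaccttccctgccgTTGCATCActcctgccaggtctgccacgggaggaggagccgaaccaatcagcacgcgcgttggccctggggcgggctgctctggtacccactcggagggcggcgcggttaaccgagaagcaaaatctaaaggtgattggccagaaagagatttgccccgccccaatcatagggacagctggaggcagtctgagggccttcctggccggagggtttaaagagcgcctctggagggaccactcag
Slc1a4: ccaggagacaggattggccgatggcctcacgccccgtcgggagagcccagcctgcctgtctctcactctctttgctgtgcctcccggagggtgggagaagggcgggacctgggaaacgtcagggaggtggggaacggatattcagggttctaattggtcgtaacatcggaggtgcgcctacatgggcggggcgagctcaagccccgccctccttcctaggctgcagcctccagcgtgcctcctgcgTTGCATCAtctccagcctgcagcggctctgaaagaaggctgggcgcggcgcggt
Trib3: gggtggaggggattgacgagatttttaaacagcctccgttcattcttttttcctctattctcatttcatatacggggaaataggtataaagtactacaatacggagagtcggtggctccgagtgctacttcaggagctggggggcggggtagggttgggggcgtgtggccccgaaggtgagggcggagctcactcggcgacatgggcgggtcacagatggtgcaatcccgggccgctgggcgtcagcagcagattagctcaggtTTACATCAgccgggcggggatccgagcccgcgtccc
Asns: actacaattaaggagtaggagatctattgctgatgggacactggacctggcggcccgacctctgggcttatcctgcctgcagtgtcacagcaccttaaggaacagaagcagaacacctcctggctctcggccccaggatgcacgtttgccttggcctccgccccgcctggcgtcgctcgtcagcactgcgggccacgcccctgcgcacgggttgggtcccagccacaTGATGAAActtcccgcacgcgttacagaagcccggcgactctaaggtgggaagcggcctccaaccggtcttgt

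Of 40 tested amino acid transporters of the SLC1, SLC6, SLC7, SLC36, SLC38 and SLC43 families with Slc3a2, 9 rose and 3 fell, beside 2.08% of all genes higher and 3.47% lower, and 8 and 2 of these were alike. The list median was 0.035, and the list was drawn up after the differences had been seen. Slc7a11 and Slc3a2, among the 9, also belong to the stress list. The clearest was Slc1a4, a carrier of alanine, serine and cysteine.

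At 0 h Slc1a4 measured 9.92, 10.10, 9.84, 10.16 and 10.16 on the antibiotic arrays, against 9.42, 9.73, 9.53, 9.41 and 9.35 on the water arrays. Slc1a4 had, at 6 h, 9.96, 9.70, 9.70, 9.65 and 9.36 with antibiotics and 9.02, 9.12, 8.99, 9.02 and 9.12 with water. For Slc1a4 the 18 h values were 9.17, 9.11, 9.10, 9.41 and 8.76 with antibiotics and 8.58, 8.48, 8.54, 8.54 and 8.41 with water. The groups did not overlap at any time, and at 6 h sample 20 was the lowest antibiotic array. The 3 differences were 0.55 at 0 h, 0.62 at 6 h and 0.60 at 18 h, and over all times Slc1a4 was higher by 0.59 ± 0.054 (SE) (adjusted p = 1.27e-07).

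At 0 h Slc6a9 measured 10.61, 10.72, 10.39, 10.73 and 10.88 on the antibiotic arrays, against 10.00, 10.28, 9.97, 9.90 and 9.95 on the water arrays. Slc6a9 had, at 6 h, 10.80, 10.71, 10.77, 10.72 and 10.00 with antibiotics and 9.61, 9.84, 9.75, 9.78 and 9.79 with water. For Slc6a9 the 18 h values were 9.92, 9.58, 9.70, 10.03 and 9.19 with antibiotics and 9.18, 8.99, 9.17, 8.95 and 9.03 with water. Here too every antibiotic array lay above every water array at each time, with sample 20 the lowest of its group at 6 h and sample 30 at 18 h. Slc6a9, a glycine transporter, was higher by 0.71 ± 0.076 (SE), with 0.65 at 0 h, 0.85 at 6 h and 0.62 at 18 h. Slc7a1, which carries arginine and lysine, was higher by 0.29 ± 0.041 (SE) and Slc7a5, a leucine carrier, by 0.29 ± 0.038 (SE). Slc38a2, a carrier of small neutral amino acids, was higher by 0.18 ± 0.030 (SE), and Slc1a5 (0.14) and Slc38a1 (0.10), both glutamine carriers, also passed. Slc7a8, a light chain for neutral amino acids, was lower by 0.27 ± 0.070 (SE), and Slc43a2 (-0.22) and Slc36a1 (-0.12) were lower as well. Slc7a8 lost its call without the 0 h or the 18 h arrays.

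The enzymes that load amino acids onto tRNA in the cytosol followed the same direction. Of 17 tested cytosolic aminoacyl-tRNA synthetases 12 rose and 0 fell, 10 of them alike, beside 2.08% of all genes higher, with a list median of 0.21. Of 16 mitochondrial synthetases 1 rose (Aars2, 0.08) and 0 fell, with a median of 0.033, and 3 rose without sample 20. Both lists were drawn up after the differences had been seen, and the difference between them was not tested. Cars, for cysteine, was higher by 0.30 ± 0.036 (SE), Lars, for leucine, by 0.31 ± 0.046 (SE), Eprs, for glutamate and proline, by 0.24 ± 0.031 (SE) and Gars, for glycine, by 0.21 ± 0.027 (SE). Eprs had nearly the same difference at each time, 0.24 at 0 h, 0.24 at 6 h and 0.24 at 18 h. Iars, for isoleucine, was higher by 0.17 ± 0.035 (SE), with 0.14 at 0 h, 0.06 at 6 h and 0.31 at 18 h (interaction adjusted p = 0.103). Hars, Kars, Vars, Farsa and Qars did not pass, at 0.07, 0.03, 0.06, -0.0032 and -0.03 in that order.

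Enzymes that make serine, glycine, proline and asparagine, with those of the folate-bound one-carbon units, rose in 14 of 21 cases and fell in 0, beside 2.08% of all genes higher, and 9 of the 14 were alike. Asns, Psat1, Phgdh and Shmt2, among the 14, were counted in the stress list too. This list, too, was drawn up after the values were seen, and its median difference was 0.14. Gpt2, the mitochondrial alanine aminotransferase, ranged over 7.82 to 9.04 on antibiotic arrays (median 8.72), against 7.65 to 8.48 on water arrays (median 8.26). It was higher by 0.48 ± 0.054 (SE), and above the mean of the water arrays of its time on 15 of 15 antibiotic arrays. Mthfd2, a mitochondrial folate dehydrogenase, ranged over 10.79 to 11.54 on antibiotic arrays (median 11.36), against 10.53 to 11.13 on water arrays (median 10.90). It was higher by 0.42 ± 0.046 (SE), with 0.38 at 0 h, 0.45 at 6 h and 0.45 at 18 h, and likewise above the water mean on 15 of 15 antibiotic arrays. Pck2, the mitochondrial form of phosphoenolpyruvate carboxykinase, was higher by 0.49 ± 0.064 (SE), with the lowest difference at 18 h (0.54 at 0 h, 0.67 at 6 h and 0.26 at 18 h; interaction adjusted p = 0.192). Psph, the last enzyme of serine synthesis, was higher by 0.32 ± 0.048 (SE) and Aldh18a1, which starts proline synthesis, by 0.26 ± 0.037 (SE). Aldh1l2 (-0.13) and Mthfd1 (0.02), also of folate metabolism, did not pass.

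With the 18 h arrays left out, 8 of 16 integrated stress genes, 9 of 17 cytosolic synthetases, 7 of 40 transporters and 9 of 21 amino acid and one-carbon enzymes were still higher. Without sample 20 the counts were 11, 13, 9 and 15, and with the keratinocyte and muscle marker means as covariates 11, 12, 9 and 13. T cell markers were slightly lower in antibiotic tumours (below), and with their mean as a covariate the counts were 8, 11, 7 and 10.

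Of 25 tested genes that build ribosomes, 16 rose and 0 fell, beside 2.08% of all genes higher, 8 of them alike, and all 25 differences were above 0 (median 0.11). Pes1, which acts in the maturation of the large subunit, was higher by 0.17 ± 0.027 (SE), with 0.17 at 0 h, 0.17 at 6 h and 0.18 at 18 h, and on 15 of 15 antibiotic arrays it lay above the water mean of its time. Rrp12 was higher by 0.13 ± 0.028 (SE) and Nop56, a core protein of the particles that methylate ribosomal RNA, by 0.11 ± 0.024 (SE). Wdr43, a small subunit processing factor, was higher by 0.14 ± 0.028 (SE), with 0.13 at 0 h, 0.06 at 6 h and 0.22 at 18 h. Myc, a transcription factor known to drive ribosome genes, was higher by 0.11 ± 0.027 (SE) and alike, and its call was lost with the arrays of any 1 time left out. With the 18 h arrays left out 1 of the 25 passed, and with the T cell marker mean as a covariate 2 did. Without sample 20 it was 19.

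Genes of other functions were also among the 12 largest alike rises. Dennd2d, which holds a DENN domain, was higher by 0.79 ± 0.123 (SE), and Cd69, an early activation antigen of lymphocytes, by 0.61 ± 0.097 (SE), with 0.81 at 0 h, 0.69 at 6 h and 0.34 at 18 h. Cd69 ranged over 9.32 to 10.40 on antibiotic arrays (median 10.13), against 8.90 to 10.00 on water arrays (median 9.42), so the groups overlapped when times were pooled. Ciart, a repressor of the circadian clock, was higher by 0.51 ± 0.062 (SE), and it was the 1 of 16 clock genes to pass, beside 2.08% of all genes higher. Glrp1 was higher by 0.46 ± 0.055 (SE), Tmcc3 by 0.41 ± 0.053 (SE) and Ifrd1, a transcriptional coregulator, by 0.38 ± 0.046 (SE). Outside those 12, Rhbdd1, a rhomboid protease of the endoplasmic reticulum, was higher by 0.30 ± 0.035 (SE) and Hspa9, the mitochondrial Hsp70, by 0.17 ± 0.023 (SE). In both, every antibiotic array lay above every water array at each time. Rhbdd1 was not counted as alike, with 0.37 at 0 h, 0.36 at 6 h and 0.16 at 18 h (interaction adjusted p = 0.176).

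Il18r1 and P2rx7 were among the genes lower alike at every time. Il18r1 is a subunit of the receptor for interleukin 18, and P2rx7 is a cation channel opened by extracellular ATP.

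At 0 h Il18r1 measured 9.80, 9.78, 10.01, 9.99 and 9.88 on the antibiotic arrays, against 10.52, 10.36, 10.20, 10.39 and 10.28 on the water arrays. Il18r1 had, at 6 h, 9.84, 9.41, 9.35, 9.63 and 9.98 with antibiotics and 10.27, 10.27, 10.31, 10.26 and 10.29 with water. For Il18r1 the 18 h values were 9.97, 9.59, 9.72, 10.32 and 9.94 with antibiotics and 10.28, 10.27, 10.42, 10.47 and 10.39 with water. The groups were apart at 0 and 6 h, and at 18 h sample 29, at 10.32, reached into the water range. Il18r1 was lower by 0.52 ± 0.061 (SE) (adjusted p = 4.12e-06), with -0.46 at 0 h, -0.64 at 6 h and -0.46 at 18 h.

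At 0 h P2rx7 measured 8.56, 8.46, 8.45, 8.59 and 8.48 on the antibiotic arrays, against 8.63, 8.86, 8.84, 8.76 and 9.00 on the water arrays. P2rx7 had, at 6 h, 8.61, 8.44, 8.22, 8.66 and 8.86 with antibiotics and 9.07, 8.93, 9.02, 9.01 and 9.10 with water. For P2rx7 the 18 h values were 8.57, 8.76, 8.57, 8.78 and 9.12 with antibiotics and 9.28, 9.43, 9.41, 9.51 and 9.35 with water. Every antibiotic array lay below every water array at each time, and samples 20 and 30 were the highest of their antibiotic groups. P2rx7 was lower by 0.47 ± 0.057 (SE) (adjusted p = 4.64e-06), and the difference was smallest at 0 h, with -0.31 at 0 h, -0.47 at 6 h and -0.63 at 18 h (interaction adjusted p = 0.331).

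Il18, the cytokine itself, was lower by 0.49 ± 0.117 (SE) and ranged over 6.30 to 7.98 on antibiotic arrays (median 7.17), against 7.17 to 8.14 on water arrays (median 7.47), so its groups overlapped. Its call was lost with the 0 h or the 18 h arrays left out. Tmprss11g, a transmembrane serine protease, was lower by 0.53 ± 0.085 (SE). Lpin1, a phosphatidate phosphatase, was lower by 0.45 ± 0.085 (SE), with -0.23 at 0 h, -0.43 at 6 h and -0.70 at 18 h, and Megf10, an engulfment receptor, by 0.40 ± 0.073 (SE). Lpin1 lost its call without the 18 h arrays. Tmem184b was lower by 0.24 ± 0.036 (SE) and Slc35b4, a nucleotide sugar transporter, by 0.18 ± 0.027 (SE). Bst1, an ectoenzyme of myeloid and stromal cells, was lower by 0.41 ± 0.118 (SE) (adjusted p = 0.0353). Its call was lost without any 1 of samples 3, 5, 7, 10, 15, 16, 17, 22, 24, 25, 26, 28 and 29.

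Of 13 tested markers of macrophages and monocytes, 3 fell and 0 rose, beside 3.47% of all genes lower, all 3 alike, and all 13 differences were below 0 (median -0.24; -0.20, -0.16 and -0.36 at 0, 6 and 18 h). The list mean per array lay between -0.46 and 0.28 in antibiotic tumours and between -0.18 and 0.46 in water tumours, so it overlapped. Cd68, a lysosomal protein of macrophages, was among the members that passed.

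At 0 h Cd68 measured 10.16, 9.86, 9.87, 10.14 and 9.88 on the antibiotic arrays, against 10.37, 10.28, 10.56, 10.16 and 10.58 on the water arrays. Cd68 had, at 6 h, 9.98, 9.69, 9.79, 9.81 and 10.35 with antibiotics and 10.18, 10.19, 10.17, 9.99 and 10.27 with water. For Cd68 the 18 h values were 9.83, 10.07, 9.89, 10.11 and 10.00 with antibiotics and 10.55, 10.25, 10.55, 10.60 and 10.60 with water. At 0 h the highest antibiotic array and the lowest water array both rounded to 10.16, at 18 h every antibiotic array lay below every water array, and at 6 h sample 20, at 10.35, lay above the whole water group. Cd68 was lower by 0.39 ± 0.061 (SE) (adjusted p = 0.000157), and by 0.43 without sample 20.

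C1qb and C1qc, subunits of complement C1q made by macrophages, were lower by 0.35 ± 0.065 (SE) and 0.32 ± 0.084 (SE). Folr2, a folate receptor of resident macrophages, was lower by 0.43 ± 0.110 (SE), and Pf4, a chemokine of platelets and macrophages, by 0.45 ± 0.098 (SE). C1qc, Folr2 and Pf4 lost their calls without the 0 h or the 18 h arrays, and C1qb without the 18 h arrays. Adgre1 (-0.23), Csf1r (-0.20) and Mrc1 (-0.19) did not pass. Without sample 20, 8 of 13 macrophage markers were lower, and 1 was with the 18 h arrays left out. With the keratinocyte and muscle marker means as covariates 9 of 13 were lower.

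Chemokine ligands, which draw leukocytes into tissue, were lower in 8 of 23 cases and higher in 0, beside 3.47% of all genes lower, and 6 of the 8 were alike. The list median was -0.28 (-0.16, -0.18 and -0.22 at 0, 6 and 18 h). Ccl2 and Ccl7, which attract monocytes, were lower by 0.35 ± 0.095 (SE) and 0.33 ± 0.089 (SE), and Ccl6 and Ccl9, made by myeloid cells, by 0.39 ± 0.112 (SE) and 0.30 ± 0.068 (SE). Cxcl16 was lower by 0.28 ± 0.070 (SE), and Ccl8 (-0.30), Ccl12 (-0.29) and Ccl22 (-0.20) also passed. Ccl6 lost its call without any 1 of samples 5, 7, 10, 15, 16, 17, 25 and 26, and Ccl7 without sample 24 or 26. The interferon-induced Cxcl9 (-0.38 ± 0.323 (SE)) and Cxcl10 (-0.30 ± 0.227 (SE)) did not pass (adjusted p = 0.625 and 0.556). Without sample 20 the count was 10. With the 18 h arrays left out, or with T cell markers as a covariate, 0 of 23 passed.

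Of 8 genes of class II antigen presentation 3 were lower and 0 higher, beside 3.47% of all genes lower (2 alike, list median -0.31). H2-Oa, a modulator of peptide loading, was lower by 0.17 ± 0.041 (SE), and Ctss, the protease that trims the invariant chain, by 0.31 ± 0.085 (SE). H2-Eb1, a class II chain, was lower by 0.33 ± 0.095 (SE) (adjusted p = 0.0369), and 17 of 30 single arrays ended its call when left out, samples 3, 5, 7, 8, 10, 11, 15, 17, 18, 19, 21, 23, 24, 25, 26, 28 and 30. Cd74, the invariant chain, had a difference of -0.37 (adjusted p = 0.116) and did not pass. Without sample 20, 7 of 8 were lower, and also 7 with the keratinocyte and muscle marker means as covariates. With the 18 h arrays, or the 6 h arrays, left out, or with T cell markers as a covariate, the number was 0.

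Genes that sense bacteria were lower in 3 of 20 cases and higher in 0, beside 3.47% of all genes lower, and all 20 differences were below 0 (median -0.13). Myd88, the adaptor below most Toll-like receptors, was lower by 0.20 ± 0.036 (SE) (adjusted p = 0.000574) and alike, with -0.17 at 0 h, -0.26 at 6 h and -0.18 at 18 h. Tlr1, a receptor for bacterial lipopeptides, was lower by 0.33 ± 0.086 (SE) and alike. Ticam1, the adaptor TRIF, was lower by 0.12 ± 0.033 (SE), most at 0 h (-0.22 at 0 h, -0.10 at 6 h and -0.06 at 18 h), and its call was lost after quantile normalisation and with the arrays of any 1 time left out. Tlr1 lost its call without the 6 h or the 18 h arrays. Tlr4 (-0.29) and Tlr13 (-0.37) did not pass. Without sample 20, 7 of 20 were lower, and 1 was with the 6 h arrays left out, with the 18 h arrays left out, or with T cell markers as a covariate.

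The study's question turns on inflammatory cytokines and on the oxidases that make reactive oxygen, so their genes were followed. None of Tnf, Il1b, Cybb, Nos2, Ncf1, Sod2, Cat and Nox1 passed in limma at an adjusted p under 0.05. At an unadjusted p under 0.05 3 of these 8 did, beside 3480 of all 19938 genes tested. Tnf stood at -0.07 ± 0.037 (SE) and Il1b at -0.09 ± 0.136 (SE). Cybb, the catalytic subunit of the phagocyte NADPH oxidase, stood at -0.27 ± 0.126 (SE) and Ncf1, a cytosolic subunit, at -0.21 ± 0.070 (SE). Nos2, the inducible nitric oxide synthase, stood at -0.30 ± 0.162 (SE) and Nox1 at -0.43 ± 0.191 (SE). The antioxidant enzymes Sod2 and Cat stood at 0.01 ± 0.022 (SE) and -0.03 ± 0.025 (SE).

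At 0 h Cybb measured 9.99, 9.28, 9.78, 10.13 and 9.51 on the antibiotic arrays, against 9.64, 9.80, 10.34, 9.62 and 10.53 on the water arrays. Cybb had, at 6 h, 9.75, 9.27, 9.18, 9.33 and 10.65 with antibiotics and 9.75, 9.91, 9.86, 9.66 and 10.15 with water. For Cybb the 18 h values were 9.45, 10.36, 10.13, 10.05 and 10.12 with antibiotics and 10.03, 10.44, 10.20, 10.51 and 10.59 with water. The groups overlapped at every time, and the highest of all 30 arrays was sample 20. Without it Cybb was lower by 0.35 (adjusted p = 0.0312) and Ncf1 by 0.25 (adjusted p = 0.0113), so both outcomes depend on that array. Ncf4, another cytosolic subunit of the oxidase, passed with all arrays, lower by 0.20 ± 0.037 (SE) and alike. It was the 1 of 8 genes of the oxidase and nitric oxide list to pass, beside 3.47% of all genes lower. Without sample 20, 3 of the 8 passed, and with the 18 h arrays left out Ncf4 lost its call and 0 passed.

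Of 26 tested targets of p53, the transcription factor activated by DNA damage, 10 fell and 0 rose, beside 3.47% of all genes lower, and 1 of the 10 was alike. Of the 10, 7 had an unadjusted interaction p under 0.05, beside 17.0% of all genes and 25.4% of the genes that passed over all times. The list median was -0.05 at 0 h, -0.12 at 6 h and -0.28 at 18 h. Trp53inp1, which promotes cell death and autophagy, differed by -0.20 at 0 h, -1.07 at 6 h and -0.81 at 18 h, Fas, a death receptor, by -0.05 at 0 h, -0.83 at 6 h and -0.65 at 18 h, and the p53 ubiquitin ligase Mdm2 by -0.05 at 0 h, -0.45 at 6 h and -0.33 at 18 h. Ccng1, cyclin G1, differed by -0.08 at 0 h, -0.49 at 6 h and -0.24 at 18 h, Ei24 by -0.09 at 0 h, -0.41 at 6 h and -0.37 at 18 h and Ptprv by -0.13 at 0 h, -0.52 at 6 h and -0.58 at 18 h. In each of these 6 genes the difference at 0 h was the smallest. Btg2, an inhibitor of cell division, was the alike member, lower by 0.38 ± 0.068 (SE), with -0.19 at 0 h, -0.53 at 6 h and -0.42 at 18 h. Without sample 20, 14 of 26 were lower, and 4 were with the 18 h arrays left out. With the keratinocyte and muscle marker means as covariates 13 were lower and 1 higher.

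Some genes that passed over all times had unequal differences. Agrn, the proteoglycan agrin, differed by -0.01 at 0 h, -0.07 at 6 h and -0.61 at 18 h (interaction adjusted p = 0.00603). Lgals3, the lectin galectin 3, differed by -0.22 at 0 h, -0.17 at 6 h and -0.68 at 18 h and Man2b2, a lysosomal mannosidase, by -0.04 at 0 h, -0.01 at 6 h and -0.35 at 18 h (interaction adjusted p = 0.0154 for both). In all 3 the difference was largest in size at 18 h. Agrn lost its call over all times without any 1 of samples 17, 21, 23, 24, 25, 26, 27, 28 and 29, and Man2b2 without any 1 of 21 of the 30 arrays. Herpud1, of the endoplasmic reticulum stress response, was highest at 6 h, with 0.22 at 0 h, 0.51 at 6 h and 0.09 at 18 h (interaction adjusted p = 0.0279). It was the 1 of 15 members of the unfolded protein list to pass, beside 2.08% of all genes higher. Bst2, an interferon-induced antiviral protein, was lower by 0.20 ± 0.031 (SE), with -0.11 at 0 h, -0.14 at 6 h and -0.33 at 18 h. It was the 1 of 21 type I interferon genes to pass (7 without sample 20), beside 3.47% of all genes lower.

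Many gene groups showed no or few calls over all times, beside 2.08% of all genes higher and 3.47% lower. Passing members numbered 0 of 21 for mitosis, 0 of 25 for DNA replication, 0 of 27 for oxidative phosphorylation, 0 of 20 for hypoxia and glycolysis, 0 of 12 for heat shock chaperones and 0 of 16 for interferon gamma with MHC class I. A group with 0 calls is not shown to be equal, and without sample 20, 7 of 20 hypoxia genes, 3 of 25 replication genes and 1 of 12 chaperones passed. At 18 h alone 3 of 21 mitosis genes, 4 of 25 replication genes and 3 of 12 chaperones were called higher, beside 4.52% of all genes. The interaction passed in 3, 2 and 3 genes of these lists, beside 2.18% of all genes. In cholesterol and fatty acid synthesis 2 of 22 were higher over all times. At 18 h alone 13 of these 22 were called higher, and the interaction passed in 6. The cholesterol list median was 0.0090 at 0 h, -0.0093 at 6 h and 0.24 at 18 h. In the inflammatory list 1 (Osm) was higher and 1 (Il18) lower of 19, and in the antioxidant list Slc7a11 was higher and Gpx1 lower (-0.17 ± 0.037 (SE)) of 19. The glucocorticoid list had 1 of 12 higher (Tsc22d3, 0.21 ± 0.056 (SE)), the immediate early list 1 of 16 (Myc), and the platinum transport and repair list 1 of 15 lower (Slc31a2). Without sample 20, 6 of 22 cholesterol genes were higher, 1 inflammatory gene was higher and 4 lower, 1 antioxidant gene was higher and 5 lower, 1 glucocorticoid gene was higher and 1 lower, and 1 immediate early gene was higher and 3 lower. With the 18 h arrays left out 0 passed in the cholesterol, inflammatory, immediate early and platinum lists. Osm lost its call without any 1 of samples 1, 7, 8, 13, 14, 16, 17, 22, 24 and 29, and Slc31a2 without sample 24. Of the cholesterol genes, Acaca lost its call without any 1 of 13 arrays and Msmo1 without sample 24, 26 or 28.

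Among markers of other cells, passing members numbered 0 of 12 for neutrophils, 0 of 9 for dendritic cells, 0 of 13 for NK and cytotoxic cells, 0 of 13 for endothelium, 0 of 17 for skeletal muscle, 0 of 14 for keratinocytes and 0 of 11 for adipocytes. Beside 3.47% of all genes lower, 1 member was lower of 10 for B and plasma cells, of 12 for mast cells and eosinophils, of 17 for fibroblasts and of 8 for erythroid cells and platelets (Pf4). The first 3 of these were Cd79b, Fcer1a and Mmp2, whose calls were lost without any 1 of 13, 14 and 21 of the 30 arrays in that order. Without sample 20, 1 dendritic, 1 NK and 1 keratinocyte marker were lower, as were 2 fibroblast, 2 erythroid or platelet and 4 T cell markers. T cell markers, which EL4 cells carry themselves, were lower in 3 of 13 cases and higher in 0 (median -0.05), beside 3.47% of all genes lower. Cd4, a coreceptor, was lower by 0.26 ± 0.055 (SE), Cd5, a signalling inhibitor, by 0.14 ± 0.029 (SE) and Cd3e by 0.09 ± 0.027 (SE). Cd4 and Cd5 lost their calls without the 0 h or the 18 h arrays. Cd3e lost its call without 20 of the 30 single arrays. The mean of the T cell list lay between -0.28 and 0.11 on antibiotic arrays and between -0.13 and 0.18 on water arrays. With that mean as a covariate 446 genes passed over all times (240 higher, 206 lower), of which 379 were among the 1106. Whether the mixture of cells differed was not tested beyond these values.

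**Figure D5:**
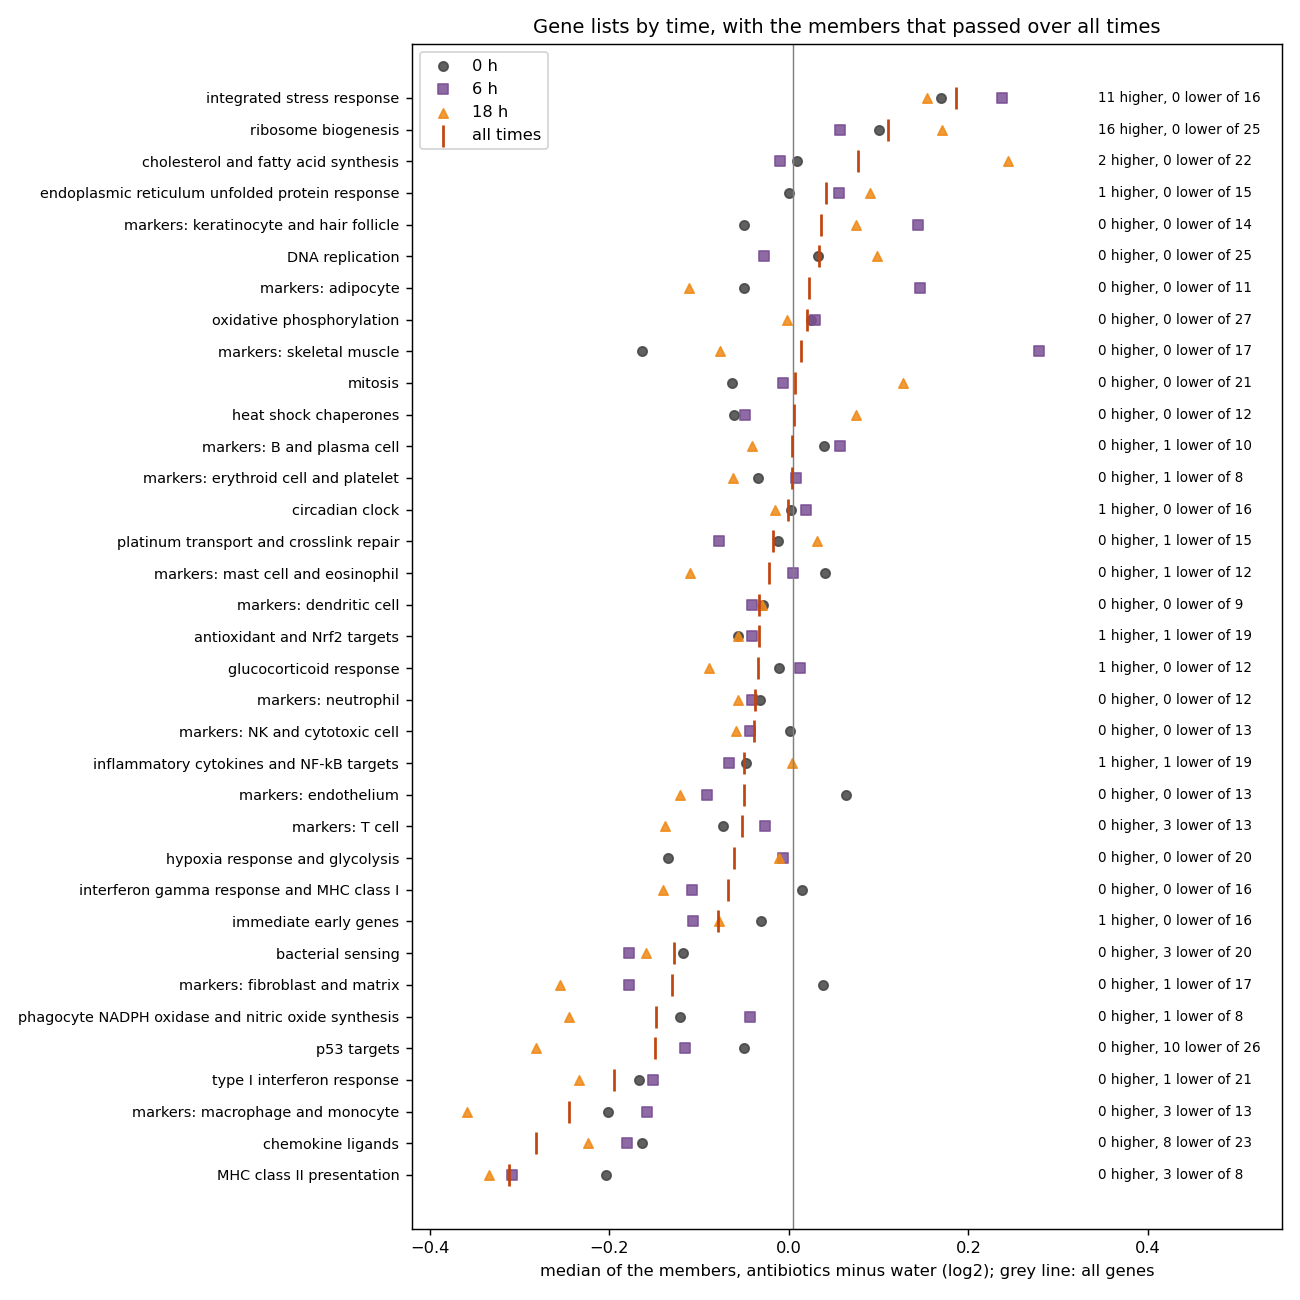
Median difference of the members of each of 35 gene lists (the transporter, synthetase and amino acid enzyme families are not drawn), antibiotics minus water on the log2 scale, at 0 h (circles), 6 h (squares) and 18 h (triangles) and over all times (orange bars); the grey line is the median of all genes, and the text at right counts members that passed over all times. Of the lists drawn, the integrated stress response lies highest and class II presentation lowest over all times, and p53 targets spread from -0.05 at 0 h to -0.28 at 18 h.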

How the data were processed

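Each of 30 samples was read on 1 Affymetrix mouse Gene 1.0 ST array. The deposited values are log2 expression per probe set; Partek 6.6 is named, without a role, per the submitters' processing notes, and summarisation and normalisation are not given in the sources used here. Of 28853 rows 21775 carried 1 gene symbol in the platform table, 1578 several and 5500 none; rows with several were not used, 21684 were found in RefSeq by Entrez ID and 0 symbols were updated. The row of highest mean stood for each of 19938 genes, 998 of which had more than 1 row.

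Differences came from limma 3.58.1 (R 4.3.3): an additive model of time and treatment (26 residual degrees of freedom) gave the difference over all times, and a model of 6 group means (24 residual degrees of freedom) gave the differences at each time and the interaction. P-values were Benjamini-Hochberg adjusted over all genes and called below 0.05. The number of arrays limits the precision. On simulated data, 5 of 25 genes planted at 0.15 in size at all times were called, and 25 of 25 each at 0.3, 0.5 and 1. Other genes were planted at 18 h only, and of the 25 of these at size 1, 3 were called over all times. In the same test 3 of 86 calls fell on genes with no planted change (3.49%). The simulated noise was independent between genes, with 1 SD per gene in all groups. This share therefore does not cover unequal spread between groups or shifts of a whole array.

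The comparison, the 36 gene lists (605 members named, 558 tested) and the rule for named genes were chosen with earlier results of these data known. That rule took the 12 largest alike differences in each direction, the 3 genes of smallest interaction p that passed, up to 4 passing members per list and direction (the member of smallest p where none passed), and the genes of the study's question. The other genes named, the 4 families of transporters, synthetases and amino acid enzymes, the motif and the removal of arrays high in skin or muscle markers were chosen after values were seen.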

Additional observations from a re-analysis of the deposited data

Results flagged for a closer look

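Among 116 genes followed in 6 groups of 5 arrays, 49 of 696 groups (7.04%) held 1 array whose gap to the nearest other exceeded Dixon's 95% limit, which chance passes in about 1 group in 20. Antibiotic 6 h sample 20 gave 21 of the 49. It lay below the other 4 antibiotic arrays, as log2 expression, in Slc7a11 (9.09), Dennd2d (8.15), Slc6a9 (10.00), Glrp1 (8.96), Mthfd2 (10.99), Atf4 (9.68), Hspd1 (12.31), Slc3a2 (12.50), Psat1 (11.79), Lars (10.07), Psph (8.53), Pck2 (9.02) and Aldh18a1 (11.23). It lay above them in Pf4 (10.02), Ncf4 (9.35), Adm (11.09), Tsc22d3 (8.87), Ccr7 (8.63), Nos2 (9.74), Cat (10.84) and Atf3 (9.02).

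Antibiotic 0 h sample 6 was low in Ei24 (10.79), Nek2 (8.97), Cd4 (8.19), Psat1 (11.84) and Mdm2 (10.45). Antibiotic 6 h sample 18 was low in Slc35b4 (10.35). Antibiotic 18 h sample 26 was low in Osm (8.55), Il1b (9.22) and Ddit4 (9.37). Antibiotic 18 h sample 30 was high in Mdm2 (11.27). Water 0 h sample 2 was high in Slc6a9 (10.28) and Glrp1 (9.44). Water 0 h sample 3 was high in Pecam1 (10.04). Water 0 h sample 5 was high in Pf4 (10.36). Water 6 h sample 11 was high in Atf4 (9.56) and low in Asns (12.76). Water 6 h sample 12 was high in Pes1 (10.37). Water 6 h sample 13 was low in Rrp12 (8.99) and Pecam1 (9.71). Water 6 h sample 15 was high in Bst1 (9.16) and Ccl9 (10.93). Water 18 h sample 21 was low in Nek2 (8.81). Water 18 h sample 22 was high in Mthfd2 (10.81) and low in Cd68 (10.25). Water 18 h sample 23 was low in Klrb1c (5.61). Water 18 h sample 24 was high in Myd88 (10.44) and low in Atf5 (7.59). Water 18 h sample 25 was high in Ccl6 (11.37).

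The antibiotic difference changed with time, by the moderated F test of limma, in Agrn (adjusted p = 0.00603), Lgals3 (adjusted p = 0.0154), Man2b2 (adjusted p = 0.0154), Sesn2 (adjusted p = 0.0233) and Herpud1 (adjusted p = 0.0279). Agrn, Lgals3 and Man2b2 were lower mostly at 18 h, Herpud1 was higher mostly at 6 h, and Sesn2 had opposite signs at 0 and 18 h.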

How the results depend on the processing

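No paired analysis was possible because the sample numbers run from 1 to 30 and no 2 samples share one. Leaving out each array in turn gave 849 to 1932 genes over all times, 408 to 1012 alike, 120 to 830 for the interaction, 7 to 60 at 0 h, 192 to 1420 at 6 h and 771 to 1852 at 18 h. The upper end came without sample 20 in all but the interaction, where it came without sample 16. The lower ends came without samples 26, 17, 23, 1, 18 and 26 in the order given. The interaction count was 731 after quantile normalisation, 166 with array medians subtracted, 716 without the dimmest 25% of genes, 719 with a trended robust prior and 722 with array weights. At 0 h 28 genes passed after quantile normalisation and with medians subtracted, 29 without the dimmest genes and 126 with array weights. At 6 h the count was 443 with medians subtracted, 1266 with weights and 1140 without the 3 arrays high in skin or muscle markers. Over all times it was 1862 with weights, 716 without the 0 h arrays, 247 without the 18 h arrays, 26 at a minimum change of 1.1-fold and 446 with the T cell covariate. Alike genes numbered 988 with weights, 208 without the 18 h arrays and 845 without the 3 arrays. The cause of these shifts was not tested.

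Of 116 genes followed, 90 passed, and 45 of these passed in every setting and without every single array. Of the 26 that did not pass, 12 passed in some setting. Sign changed in 5 genes that had not passed: Sesn2 (0.047 with weights, 0.22 without 18 h, 0.043 without the 3 arrays, -0.086 to 0.023 with single arrays left out, the upper value without sample 20), Myh7 (-0.0090), Il1b (0.043) and Cebpb (-0.0025) without 6 h, and Sod2 (-0.011) without 18 h.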
